A study of Gallus gallus with 2 samples.

Results

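The protein tyrosine phosphatase genes of the chicken (Gallus gallus) thymus were taken as every gene whose symbol begins with PTPN and a digit or with PTPR and a letter. This gave 32 of the 28951 genes in the matrices, 17 of receptor type (PTPR, with a segment that crosses the membrane) and 15 of non-receptor type (PTPN). The measurement was droplet single-nucleus RNA sequencing, in which each captured transcript is counted once by its unique molecular identifier (UMI). The 2 libraries, replicate 1 and replicate 2, came from flash-frozen thymus of female birds aged 5 weeks, with no treatment group in the labels, so no condition differed and the comparisons are between groups of nuclei within libraries. The labels do not say that the libraries came from separate birds. The p-values therefore measure only how far differences between groups varied from one library to the other, and that spread may be technical.

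Protein tyrosine phosphatases remove phosphate from tyrosine residues and so act against, and in some cases with, the tyrosine kinases that carry signals from antigen and cytokine receptors. In mammalian T cells the receptor-type CD45, encoded by PTPRC, keeps Src-family kinases active by removing an inhibitory phosphate, while PTPN6 and PTPN22 limit signalling from the T cell receptor and PTPN2 limits signalling from cytokine receptors through JAK and STAT proteins. Many of the other receptor-type members carry domains of adhesion molecules on the cell surface and are best known from epithelium, endothelium and the nervous system.

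After filtering, 4861 nuclei of replicate 1 and 5239 of replicate 2 remained, with medians of 661 and 827 UMIs, and 10 barcode sequences occurred among the nuclei of both libraries. Of the 10100 nuclei, 9562 were T lineage and fell into 9 groups. Stage or lineage markers gave the names early DN-like (368 nuclei, for double negative, before CD4 and CD8 are made), DP-like (3024, for double positive, with RAG1 and RAG2 among the leading genes), signalled-like (1373, led by EGR3 and HIVEP3), CD4 SP-like (382, for CD4 single positive, with CD40LG) and gamma delta-like (986, with SOX13). The others were called by their leading genes, as cycling thymocytes (1582, with ASPM and CENPF), the CLGN cluster (886), the GNLY cluster (853) and the NR4A3 cluster (108, with TNFRSF9). The stage lists were not high only in the groups named from them. Detected CD4 SP markers had a mean log2 fold against all other nuclei of 0.90 in CD4 SP-like nuclei, 1.01 in the GNLY cluster and 0.94 in the NR4A3 cluster. Markers of strong signalling had 1.49 in signalled-like nuclei and 3.42 in the NR4A3 cluster. The 11 T-lineage markers in the matrices were all present in each of these groups, at summed levels from 13972 to 39819 UMIs per 1000000 UMIs. Genes of the cell cycle were not confined to cycling thymocytes. The mean log2 fold of detected mitosis and replication markers against all other nuclei was 2.43 and 1.12 there. It was 1.20 and 1.22 in early DN-like nuclei and 0.64 and 0.44 in the main gamma delta-like cluster (914 nuclei). In the other T-lineage clusters the mitosis value was negative or rested on too few markers. The other classes were thymic epithelial-like (171 nuclei), B-like (109), dendritic-like (78), macrophage-like (76) and erythroid-like (63), beside a CHGA cluster of 41 nuclei that was left out of tests. All of these names were rebuilt here, after the clusters' genes were seen, and the authors may have drawn the groups otherwise.

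Levels are UMI sums per library and group, given as counts per 1000000 UMIs of that library and group (CPM). Long genes can yield more UMIs in nuclei where reads from introns are counted, and whether they were is not given in the sources used here. A length effect was not tested. Single genes were set side by side per kilobase of gene span, while the sums over each type given further below were not divided by length. On that scale, in the T lineage, PTPRC was the highest member with 18.3 CPM per kilobase in replicate 1 and 18.4 in replicate 2. PTPN22 came next at 7.65 and 6.42, then PTPRA at 5.58 and 5.79 and PTPN6 at 5.67 and 4.56. The places of PTPN22 and PTPN6 rest on short spans of 13.3 and 20.3 kb, and before the division they ranked 12th and 11th. PTPRF, which spans 342 kb on chromosome 8 and ranked 2nd before the division, ranked 10th after it, at 2.28 and 2.48. All 32 genes were matched by symbol, not by gene identifier, to RefSeq on GRCg7b, where PTPRC lies at chr8:2035004-2116225. These spans may differ from those of the annotation used for counting.

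Within the T lineage, many of the phosphatase genes differed between groups, PTPRC, PTPRF, PTPRG, PTPRK and PTPN6 with the lowest p-values. Of the 32 members 22 passed the filter on low counts. Of these, 14 differed over the 9 groups at an adjusted p under 0.05, in an F test of edgeR's quasi-likelihood fit with Benjamini-Hochberg adjustment over 7168 genes, of which 42.3% did so. They were 8 of the 9 tested receptor-type members and 6 of the 13 tested non-receptor-type members. Because a member could pass the filter through the group in which it was high, these counts describe the tested members only. The members were kept out of the genes used for clustering, but genes that vary with them in the same nuclei remained, so the p-values are not independent of the clustering.

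PTPRC, which encodes CD45, was low in early DN-like nuclei and in the CLGN cluster and high in CD4 SP-like nuclei and in the NR4A3 and GNLY clusters. It stood at 299 and 233 CPM in the early DN-like sums of replicates 1 and 2, and at 528 and 350 in the CLGN cluster. Cycling thymocytes had 1416 and 1330, gamma delta-like nuclei 1211 and 1374, DP-like nuclei 1717 and 1671, and signalled-like nuclei 1610 and 2046. The highest values were 2343 and 2298 in CD4 SP-like nuclei, 2313 and 2050 in the NR4A3 cluster and 2150 and 2205 in the GNLY cluster. The range of the NR4A3 cluster overlapped with those of the CD4 SP-like nuclei and the GNLY cluster, which lay apart from each other. The libraries of the lower groups overlapped in part, namely those of signalled-like and DP-like nuclei and those of cycling and gamma delta-like nuclei, while early DN-like nuclei lay below the CLGN cluster in both libraries. Over all groups the adjusted p was 1.70e-09 by edgeR.

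Each group was then compared with the unweighted mean of the other 8 on the log scale, by edgeR with the library as a block. PTPRC was lower in early DN-like nuclei (log2 fold change -2.60 ± 0.16, SE, adjusted p = 3.58e-09) and in the CLGN cluster (-1.62 ± 0.14, adjusted p = 1.73e-07). It was higher in CD4 SP-like nuclei (log2 fold change 1.00 ± 0.11, adjusted p = 5.89e-06), with smaller differences in the NR4A3 cluster (0.85 ± 0.13), the GNLY cluster (0.85 ± 0.11), DP-like nuclei (0.77 ± 0.11) and signalled-like nuclei (0.58 ± 0.11). The NR4A3 cluster had 6857 and 5586 CPM of the B-cell list, of which BACH2 gave 6593 and 5586, while PAX5 and EBF1 had 1 and 10 UMIs. In early DN-like nuclei, the group with the least PTPRC, markers of the B-cell list summed to 509 and 367 CPM with 5 of 9 at 0 UMIs. BACH2 gave 480 and 353 of this, and the list without BACH2 summed to 28.5 and 14.2. Markers of the endothelial list summed to 133 and 213 with 5 of 11 at 0 UMIs, and ERG, which is on that list, was a leading gene of this group. The part of RNA from other classes in the PTPRC level was not tested.

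**Figure D1:**
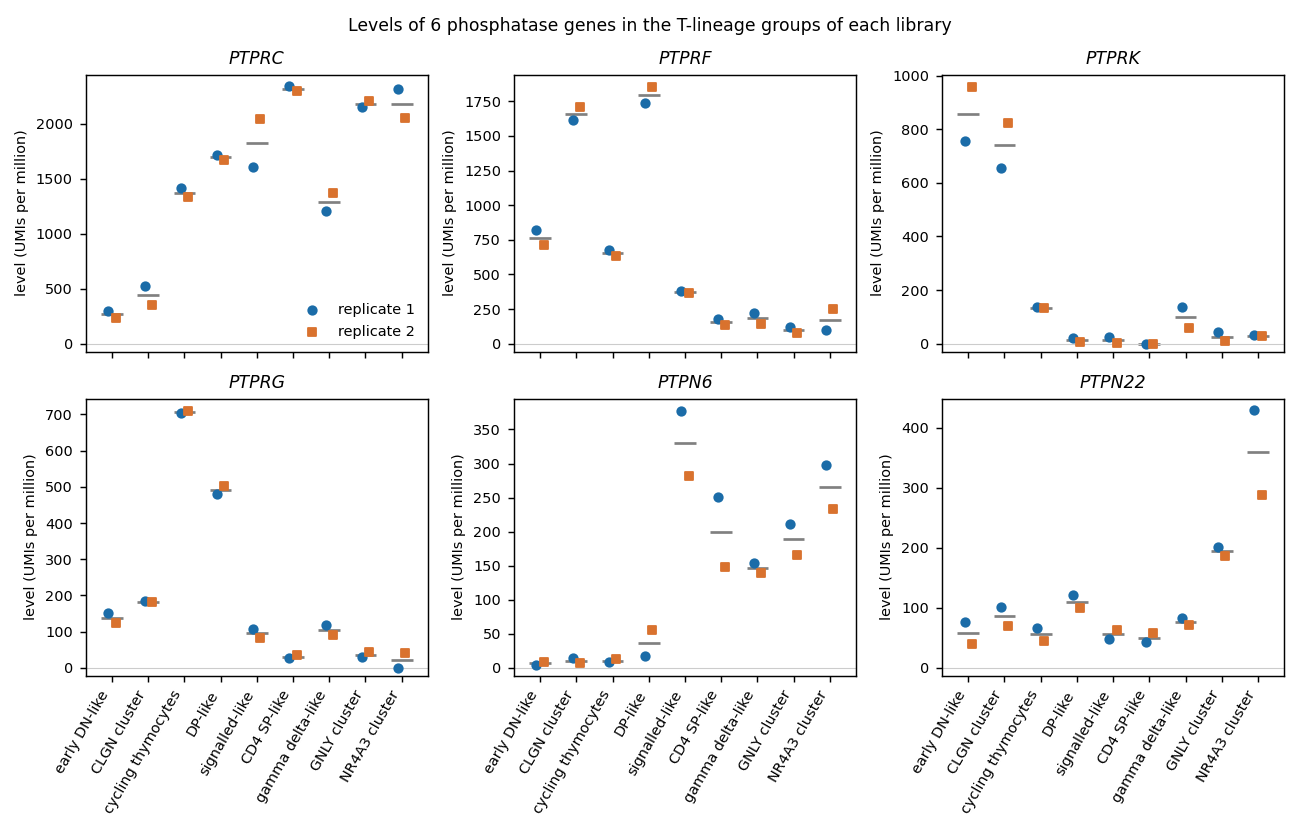
Level (CPM, vertical axis from 0) of 6 phosphatase genes in the 9 T-lineage groups, with a circle for replicate 1, a square for replicate 2 and a grey line for their mean. PTPRC reached 2343 and 2298 in CD4 SP-like nuclei, where PTPRK had no UMI, and PTPN6 was above 100 in 5 groups and below 60 in the other 4.

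PTPRF, PTPRG and PTPRA, a trio of receptor-type genes, were highest in DP-like nuclei or cycling thymocytes. PTPRF encodes LAR, an adhesion-type phosphatase with immunoglobulin and fibronectin repeats, and had the lowest p of all members (3.89e-11 over all groups, edgeR). Its level was 1736 and 1854 CPM in DP-like nuclei and 1612 and 1709 in the CLGN cluster. It was 818 and 711 in early DN-like nuclei, 674 and 635 in cycling thymocytes and 384 and 366 in signalled-like nuclei. In the GNLY cluster it was 123 and 76.4, and in CD4 SP-like nuclei 177 and 133. The DP-like and CLGN sums stood above every other group in both libraries, and against the mean of the other groups the log2 fold change was 2.69 ± 0.12 in DP-like nuclei (adjusted p = 7.22e-12) and 2.40 ± 0.12 in the CLGN cluster (2.91e-10), against -2.36 ± 0.20 in the GNLY cluster (2.38e-07), by edgeR.

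PTPRG, which encodes a phosphatase with a carbonic anhydrase-like outer domain, peaked in another group. It stood at 703 and 709 CPM in cycling thymocytes and at 481 and 503 in DP-like nuclei. The other 7 groups lay between 0 and 184 in every library, so neither of the 2 high groups overlapped with any of them. Its log2 fold change was 2.99 ± 0.15 in cycling thymocytes (adjusted p = 1.11e-10) and 2.69 ± 0.15 in DP-like nuclei (3.28e-10), and -2.00 ± 0.34 in CD4 SP-like nuclei (4.73e-04), by edgeR. In the NR4A3 cluster only 3 UMIs of PTPRG were counted.

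PTPRA, whose product activates Src-family kinases, stood apart in DP-like nuclei. DP-like nuclei held 911 and 915 CPM, and the other groups from 151 to 535. Against the mean of the other groups the DP-like level was higher by a log2 fold change of 1.42 ± 0.10 (adjusted p = 1.29e-08), and PTPRA was lower in CD4 SP-like nuclei (-0.61 ± 0.15, 0.00880) and in the NR4A3 cluster (-1.06 ± 0.22, 0.00529), by edgeR.

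PTPRK and PTPRS, both adhesion-type receptors, were highest in early DN-like nuclei. Their ranges there overlapped with those of the CLGN cluster for PTPRK and of the NR4A3 cluster for PTPRS. PTPRK carries a MAM domain and binds to itself on neighbouring cells, and in the rat its loss is known to impair the development of CD4 T cells. Its level was 756 and 956 CPM in early DN-like nuclei and 657 and 822 in the CLGN cluster. Cycling thymocytes had 139 and 132, gamma delta-like nuclei 136 and 60.3, and DP-like nuclei 19.9 and 6.15. No UMI of PTPRK was found in CD4 SP-like nuclei among 496379 UMIs, which allows at most 6.04 CPM. Its level there was thus at least 39.6-fold lower than the mean of the other groups (counting error only, with 3 counts over both libraries as the limit). That mean rests mostly on early DN-like nuclei and the CLGN cluster. PTPRK was also low in signalled-like nuclei, at 26.4 and 2.11, the GNLY cluster, at 44.1 and 9.55, and the NR4A3 cluster, at 33.0 and 27.5. The 2 high groups stood apart from the other 7 in both libraries, and the adjusted p over all groups was 1.17e-08 by edgeR. PTPRS encodes a relative of PTPRF that binds proteoglycans. It was at 242 and 296 CPM in early DN-like nuclei, 231 and 289 in the NR4A3 cluster and 214 and 194 in signalled-like nuclei, against 50.1 to 153 elsewhere. Only the early DN-like difference passed among the contrasts (log2 fold change 1.06 ± 0.24, adjusted p = 0.00295, edgeR).

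PTPRB and PTPRJ had their highest levels in the GNLY and NR4A3 clusters, and PTPRB was also found in CD4 SP-like nuclei. The NR4A3 levels rest on 10 UMIs of PTPRB and 15 of PTPRJ. PTPRB is best known as the vascular endothelial phosphatase, and PTPRJ, also called CD148, is found on blood cells in mammals. PTPRJ stood at 189 and 149 CPM in the GNLY cluster and at 165 and 68.8 in the NR4A3 cluster, and at 27.4 or less in every other group and library. PTPRB stood at 85.8 and 113 in the GNLY cluster, 82.6 and 68.8 in the NR4A3 cluster and 58.8 and 64.6 in CD4 SP-like nuclei. In the remaining groups it was at 28.5 or less. No PTPRB UMI occurred in DP-like nuclei, which is at least 21.5-fold lower than the mean of the other groups (a call lost with doublets kept or with at least 400 genes per nucleus), and no PTPRJ UMI in the CLGN cluster, at least 9.94-fold lower. The contrast of PTPRJ in the CLGN cluster did not pass (adjusted p = 0.0548, edgeR), and the mean it was set against rests mostly on the GNLY and NR4A3 clusters. The mean for PTPRB rests mostly on these clusters and CD4 SP-like nuclei. Over all groups the adjusted p was 7.82e-06 for PTPRJ and 1.09e-05 for PTPRB (edgeR). Markers of the endothelial list summed to 27.0 and 22.9 CPM in the GNLY cluster, with 6 of 11 at 0 UMIs, and to 49.6 and 0 in the NR4A3 cluster, with 9 of 11 at 0 UMIs. The part of such RNA in the PTPRB level was not tested.

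Among the non-receptor-type members that differed were PTPN6, PTPN7, PTPN22 and PTPN2. PTPN6 encodes an SH2-domain phosphatase that is recruited by inhibitory receptors. Its level was 377 and 282 CPM in signalled-like nuclei, 297 and 234 in the NR4A3 cluster and 251 and 149 in CD4 SP-like nuclei. The GNLY cluster had 211 and 166 and gamma delta-like nuclei 154 and 139. DP-like nuclei had 17.1 and 55.4, and early DN-like nuclei, the CLGN cluster and cycling thymocytes between 4.75 and 13.9. The 5 groups with more PTPN6 did not overlap with the 4 groups with less. The B-cell list, which contains BACH2, split the groups in the same way, with sums of 1425 CPM or more in the 5 and of 570 or less in the 4. BACH2, a repressor that T cells also use, carried these sums, which were at most 112 without it except for 264 in the NR4A3 cluster of replicate 1, against 7890 and 8870 in B-like nuclei. For PTPN6 the adjusted p over all groups was 9.10e-08 (edgeR). Among the single groups its log2 fold change ran from 2.63 ± 0.25 in signalled-like nuclei (adjusted p = 3.48e-06) to -3.52 ± 0.61 in early DN-like nuclei (2.86e-04), the latter resting on 4 UMIs.

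PTPN7 and PTPN22 were highest elsewhere. PTPN7, which acts on MAP kinases in blood cells, stood at 127 and 157 CPM in the GNLY cluster and at 33.1 to 92.6 in signalled-like, gamma delta-like and CD4 SP-like nuclei and the NR4A3 cluster. In the other 4 groups it was between 0 and 19.3. The GNLY level gave a log2 fold change of 2.66 ± 0.38 against the other groups (adjusted p = 7.95e-05, edgeR). PTPN22, which works together with the kinase CSK, stood at 430 and 289 CPM in the NR4A3 cluster and 201 and 187 in the GNLY cluster, and at 39.8 to 121 in the other 7 groups. Both clusters lay above all the others in both libraries, with log2 fold changes of 2.13 ± 0.27 (adjusted p = 4.19e-05) and 1.15 ± 0.20 (4.42e-04), by edgeR.

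PTPN2, which acts on JAK kinases and STAT factors, was lower in DP-like nuclei. It stood there at 39.8 and 83.5 CPM, below the lowest value of any other group, 122 in the CLGN cluster of replicate 1. The log2 fold change was -1.44 ± 0.21 in DP-like nuclei (adjusted p = 4.92e-05), and the GNLY cluster, with 287 and 283, was higher by 0.71 ± 0.18 (0.0107), by edgeR. The last 2 of the 14 members were PTPN21 and PTPN13, which both carry a FERM domain. PTPN21 was higher in the CLGN cluster, at 118 and 162 CPM, and PTPN13 had 20 of its 63 T-lineage UMIs in CD4 SP-like nuclei, at 37.4 and 42.0, and 16 in gamma delta-like nuclei, at 29.0 and 5.65, with no UMI in DP-like nuclei. The F test of PTPN21 missed the threshold without the library as a block (adjusted p = 0.0531, edgeR), and that of PTPN13 with called doublets kept (0.168).

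**Figure D2:**
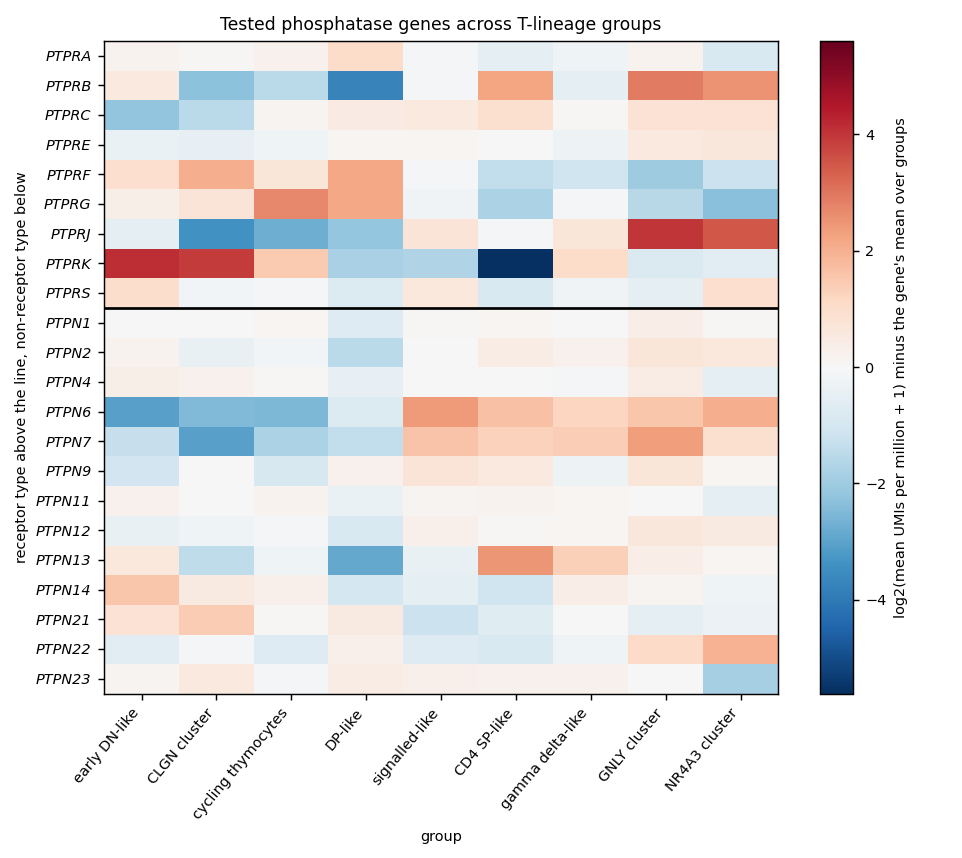
Log2(mean CPM + 1) of the 22 tested members in the 9 T-lineage groups, minus each gene's mean over the groups (red above, blue below), with receptor-type genes above the black line. PTPRK, with no UMI in CD4 SP-like nuclei, is the darkest blue cell, and PTPRJ in the GNLY cluster and PTPRK in early DN-like nuclei are the darkest red.

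Counted by group, the tested members passed in both directions in most contrasts. In DP-like nuclei 5 of 22 were higher, where 18.2% of all genes tested were, and 4 were lower, where 15.1% were. The higher ones were PTPRF, PTPRG, PTPRA, PTPRC and PTPN22 and the lower ones PTPN2, PTPRB, PTPN13 and PTPN1, and the calls of PTPN22 and PTPN1, at log2 fold changes of 0.56 and -0.57, were lost under 8 and 5 of the alternatives. With scale factors from the median of ratios the median of all genes moved by -0.12 in this contrast, and the share of higher genes among the called ones fell from 54.7% to 44.4%.

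In the GNLY cluster 7 members were higher (background 9.38%) and 2 lower (2.4%). The higher ones were PTPRJ, PTPRB, PTPRC, PTPN7, PTPN6, PTPN22 and PTPN2, and the lower ones PTPRF and PTPRG. In the NR4A3 cluster 5 were higher (3.81%) and 3 lower (2.19%), and in CD4 SP-like nuclei 4 were higher (7.24%) and 4 lower (4.05%). PTPRC, PTPN6 and PTPRB were higher and PTPRF, PTPRG and PTPRA lower in both of these, beside PTPN22 and PTPRJ, higher in the NR4A3 cluster, and PTPN13, higher, and PTPRK, lower, in CD4 SP-like nuclei.

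In early DN-like nuclei 4 members were higher (13.2%) and 3 lower (7.94%), and in the CLGN cluster 4 were higher (10.5%) and 3 lower (5.94%). PTPRK and PTPRF were higher in both and PTPRC and PTPN6 lower in both. PTPRS and PTPN14, a regulator of YAP, completed the higher ones in early DN-like nuclei, the PTPN14 call being lost with coarser clustering, and PTPN21 and PTPRG those in the CLGN cluster, while PTPN22 was lower in the first, a call lost under 6 alternatives, and PTPN7 in the second, on 2 UMIs. The PTPRG call in the CLGN cluster was lost under 3 alternatives. In cycling thymocytes 3 were higher (11.5%) and 3 lower (4.79%), in gamma delta-like nuclei 2 were higher (7.3%) and 1 lower (1.24%), and in signalled-like nuclei 3 were higher (4.69%). Lower calls, made for 2.3% of all genes in signalled-like nuclei, included 0 members by edgeR, with 2 at an unadjusted p under 0.05. DESeq2 called 3 members lower there (PTPRK, PTPN21 and PTPN22) and limma-trend 1 (PTPRK). PTPN6 and PTPN7 were higher in gamma delta-like and signalled-like nuclei, where PTPRF was lower in the first and PTPRC higher in the second, and both were lower in cycling thymocytes. There PTPN22 was also lower and PTPRG, PTPRF and PTPRK were higher. By limma-trend PTPN7 did not pass in signalled-like nuclei, nor PTPN6 and PTPN7 in gamma delta-like nuclei, nor PTPRF in cycling thymocytes. The PTPRK call in cycling thymocytes was lost by limma-trend and with coarser clustering, with doublets kept and with separate UMIs for clustering and testing, where its log2 fold change was 0.79, 0.62 and 0.44 against 1.92. The PTPN7 and PTPN22 calls in cycling thymocytes were each lost under 3 alternatives.

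Since the other groups are averaged on the log scale, a member with very low groups can be called higher at a level below the plain mean of the others. This held for PTPRK in cycling thymocytes (135 against 222 CPM on average), PTPRG in the CLGN cluster (182 against 203) and PTPN22 in DP-like nuclei (111 against 117). Where a second group was at or near 0 UMIs, the contrast could also not call a low group lower. Counted where edgeR's p lay near its upper limit and the fold change was large, this applied to 12 contrasts of members. These 12 come from the T-lineage and class fits together, and contrasts outside this count could also be affected. By limma-trend, added after the data were seen, 11 of the 12 were called lower. Among them were PTPRK in DP-like and signalled-like nuclei and PTPRJ in DP-like nuclei and cycling thymocytes.

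The 8 tested members that did not pass over the T-lineage groups were PTPN4, PTPN12, PTPN14, PTPRE, PTPN1, PTPN9, PTPN23 and PTPN11, with adjusted p from 0.0960 to 0.953 by edgeR. PTPN11, an SH2-domain phosphatase that acts downstream of growth factor receptors, stood between 27.5 and 80.8 CPM in every group and library. PTPN4, with FERM and PDZ domains, stood between 137 and 319.

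The 10 members that did not pass the filter were rare in T-lineage nuclei. Over both libraries the T lineage held 16 UMIs of PTPRU, 14 of PTPRM, 9 each of PTPRN and PTPRR, 8 each of PTPRD and PTPRQ, 7 each of PTPRO and PTPRZ1, 5 of PTPN3 and 2 of PTPN5. Of these 10, 8 are receptor type, so 8 of the 17 receptor-type members had 16 or fewer UMIs in 9562 nuclei.

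Summed over all members, receptor-type UMIs outnumbered non-receptor-type UMIs in every T-lineage group, and the balance moved with the group. In the whole T lineage the receptor type summed to 3539 and 3644 CPM and the non-receptor type to 1132 and 1104, a ratio of 3.21 ± 0.12 (SD, n = 2). The ratio was highest in DP-like nuclei at 6.95 ± 0.94, followed by cycling thymocytes at 3.80 ± 0.05 and the CLGN cluster at 3.46 ± 0.09. It was lowest in gamma delta-like nuclei at 1.87 ± 0.16 and in the GNLY cluster at 1.97 ± 0.03. These sums are not divided by length and are described without a test, since receptor-type genes are mostly longer. Per kilobase, the members ranked 1 to 10 in the T lineage were PTPRC, PTPN22, PTPRA, PTPN6, PTPN7, PTPN2, PTPN9, PTPN1, PTPN23 and PTPRF, in that order. Of these, PTPN22, PTPN6, PTPN7, PTPN9 and PTPN23 ranked 12th, 11th, 16th, 20th and 17th without the division. The ratios therefore compare UMIs and do not show that the receptor type was higher per kilobase.

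The make-up of the receptor-type sum also differed between groups. PTPRC gave 8.87% of receptor-type UMIs in early DN-like nuclei and 11.5% in the CLGN cluster, but 33.3% in DP-like nuclei, 65.2% in the GNLY cluster and 76.4% in CD4 SP-like nuclei. Without PTPRC the ratio of receptor to non-receptor type was 4.63 ± 0.58 in DP-like nuclei, 3.04 ± 0.05 in the CLGN cluster, 2.41 ± 0.12 in early DN-like nuclei and 2.35 ± 0.01 in cycling thymocytes. In the other 5 groups it was below 1, from 0.56 ± 0.02 in CD4 SP-like nuclei to 0.90 ± 0.10 in signalled-like nuclei. The libraries of those 5 groups did not overlap with those of the 4 groups above 1.

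**Figure D3:**
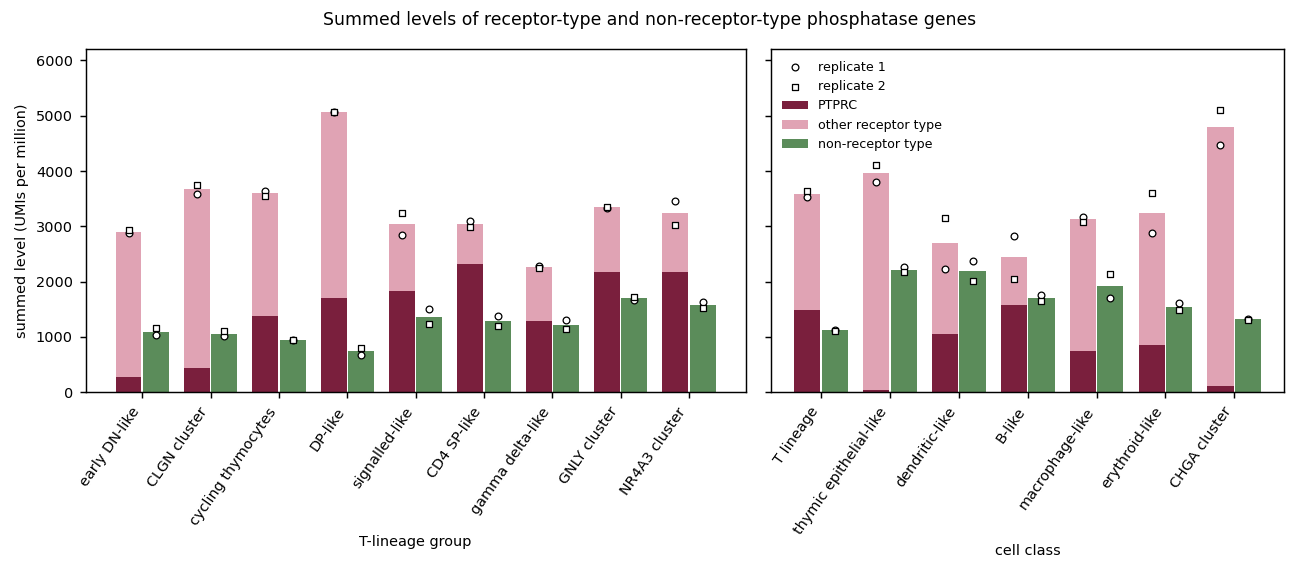
Summed level (CPM) of the 17 receptor-type genes, with PTPRC as the dark part of the bar, and of the 15 non-receptor-type genes (green), in T-lineage groups on the left and in cell classes on the right. Bars are means of both libraries and open symbols the single libraries, and the DP-like receptor-type sums, 5064 and 5072, are the highest of the T-lineage groups.

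Between cell classes, 16 members passed the filter. Here too a member could pass it through the class in which it was high, so the counts by class describe the tested members only. Over all classes 15 of the 16 differed, where 70.6% of the 2522 genes tested did (edgeR, F test, adjusted p under 0.05). Each class was also set against the unweighted mean of the other 5 on the log scale, and 14 of the 16 members passed in at least 1 of these contrasts. Means of the other classes given in CPM are plain means. The share of all genes that did so was not computed, so the 14 describes the tested members only. In these contrasts the T lineage had a median log2 fold change of 0.56 over all genes tested, which was 0.08 with scale factors from the median of ratios, the share of higher genes among the called ones falling from 87.6% to 67.6%, and the same change of scaling moved the macrophage-like median by 0.16 and the erythroid-like median by 0.20.

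Thymic epithelial-like nuclei had 7 of 16 tested members higher (background 29.7%) and 5 lower (26.2%). PTPRK stood at 1652 and 1754 CPM, against a mean of 73.6 in the other classes (log2 fold change 5.63 ± 0.30, adjusted p = 1.44e-13, edgeR). PTPN3, with FERM and PDZ domains, stood at 635 and 548, and 3 of the other classes had no UMI of it. In the T lineage it was at 0.58 and 0.64, with 5 UMIs in all. PTPN14 stood at 519 and 450 and PTPN13, also with FERM and PDZ domains, at 399 and 450. PTPRS, at 829 and 895, was higher by 2.91 ± 0.27 (1.68e-09). PTPRG and PTPRF were the other higher members, and the PTPRF call was lost by DESeq2, by limma-trend and with coarser clustering. These members were also found in the untested CHGA cluster. There PTPRK stood at 873 and 688 CPM, PTPN3 at 345 and 223, PTPRS at 551 and 550 and PTPRF at 919 and 1650. PTPRG stood there at 597 and 198, PTPN14 at 161 and 34.4 and PTPN13 at 115 and 77.4.

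The lower members in thymic epithelial-like nuclei were PTPRC, PTPRE, PTPN6, PTPRA and PTPN1. PTPRC stood at 26.2 and 36.4 CPM against a mean of 1145 in the other classes (log2 fold change -4.62 ± 0.43, adjusted p = 1.23e-09, edgeR). PTPRE was at 0 and 5.59, PTPN6 at 5.25 and 0 and PTPRA at 21.0 and 58.7. PTPN1, an enzyme of the endoplasmic reticulum surface known for its action on the insulin receptor, was at 47.2 and 2.80. The T-lineage markers summed to 178 and 638 CPM in these nuclei, with 7 of the 11 at 0 UMIs. No PTPN7 UMI was counted in 548140 UMIs, which is at least 11.6-fold lower than the mean of the other classes.

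The T lineage had 5 tested members higher (30.1%) and 2 lower (4.28%), all of receptor type. Of the 7 tested non-receptor-type members 0 passed in this contrast by edgeR, and 0 had an unadjusted p under 0.05, while DESeq2 called 3 of them lower (PTPN3, PTPN4 and PTPN13) and limma-trend 1 (PTPN3). For PTPN3 and PTPN13, with 3 and 2 classes at 0 UMIs, the edgeR SEs were 12.4 and 3.92, so edgeR could hardly call them lower. PTPRC stood at 1485 and 1491 CPM against a mean of 854 in the other classes (log2 fold change 1.96 ± 0.24, adjusted p = 6.30e-07), and PTPRA at 547 and 568 against 266 (2.06 ± 0.29, 3.53e-06), by edgeR. Both fold changes, taken against the log-scale mean, exceed what these plain means give. The PTPRC range overlapped with that of B-like nuclei, at 1757 and 1408, and PTPRA was higher in macrophage-like nuclei, at 701 and 601. PTPRF, at 781 and 848, and PTPRG, at 307 and 307, were also called higher, but neither by limma-trend, and PTPRF also not by DESeq2. PTPRK was called higher although its 161 and 180 lay below the mean of 380 in the other classes, and the call was lost under 7 alternatives. PTPRJ was lower, at 28.0 and 24.3 against 307 (-2.86 ± 0.45, 2.04e-05), but not where called doublets were kept or where separate UMIs were used for clustering and testing. PTPRM was also lower, at 2.31 and 1.27, and this call was lost with doublets kept and by limma-trend.

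Macrophage-like nuclei had 5 members higher (13.4%) and 2 lower (4.68%). PTPN13 stood at 252 and 213 CPM, with no UMI in B-like and erythroid-like nuclei. PTPRA stood at 701 and 601 (log2 fold change 1.70 ± 0.38, adjusted p = 0.00170) and PTPRS at 729 and 504 (1.65 ± 0.37, 0.00170), by edgeR. PTPRJ, at 449 and 659, and PTPN6, at 421 and 291, were the other higher members, and PTPRF and PTPRG, with 3 and 1 UMIs, the lower ones. The PTPRS call was lost with doublets kept, that of PTPRJ by limma-trend, that of PTPRG by DESeq2 and that of PTPRF under 3 alternatives. In these nuclei the thymic epithelial list summed to 1598 and 2074 CPM with 10 of its 15 genes at 0 UMIs, and the part of such RNA in the levels of PTPN13 and PTPRS, both also high in epithelial-like nuclei, was not tested.

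B-like nuclei had 2 members higher (9.91%) and 2 lower (1.98%). PTPRC stood at 1757 and 1408 CPM (log2 fold change 1.47 ± 0.27, adjusted p = 4.55e-04) and PTPN6 at 490 and 329 (2.43 ± 0.48, 8.40e-04), by edgeR. PTPRS, at 33.8 and 105, was lower (-2.00 ± 0.51, 0.00930), as was PTPRK with 2 UMIs, though not by limma-trend. The T-lineage markers summed to 3159 and 1882 CPM in B-like nuclei, against 24312 and 27034 in the T lineage.

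Dendritic-like nuclei had 2 members higher (7.41%), while 0.952% of all genes were lower there. PTPRE, a close relative of PTPRA, stood at 1170 and 638 CPM against a mean of 167 in the other classes (log2 fold change 3.21 ± 0.40, adjusted p = 4.92e-06, edgeR). This was the highest level of PTPRE in any class. PTPN13, at 257 and 131, was the other, and its call was lost under 3 alternatives. Erythroid-like nuclei had 1 member higher (6.3%, against 2.85% of all genes lower), namely PTPRM at 333 and 162, which rests on 12 UMIs and was lost with finer clustering, with doublets kept and by limma-trend, which also called PTPN2, PTPN3 and PTPN13 lower. In these nuclei the erythroid list summed to 22263 CPM in replicate 1 and 3843 in replicate 2, and the thrombocyte list to 3775 and 2301 with 1 of its 9 genes at 0 UMIs, and their part in the phosphatase levels was not tested. T-lineage markers summed to 11159 and 15293 CPM in erythroid-like nuclei, and the part of T-lineage RNA in their PTPRF level of 444 and 947 was not tested.

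**Figure D4:**
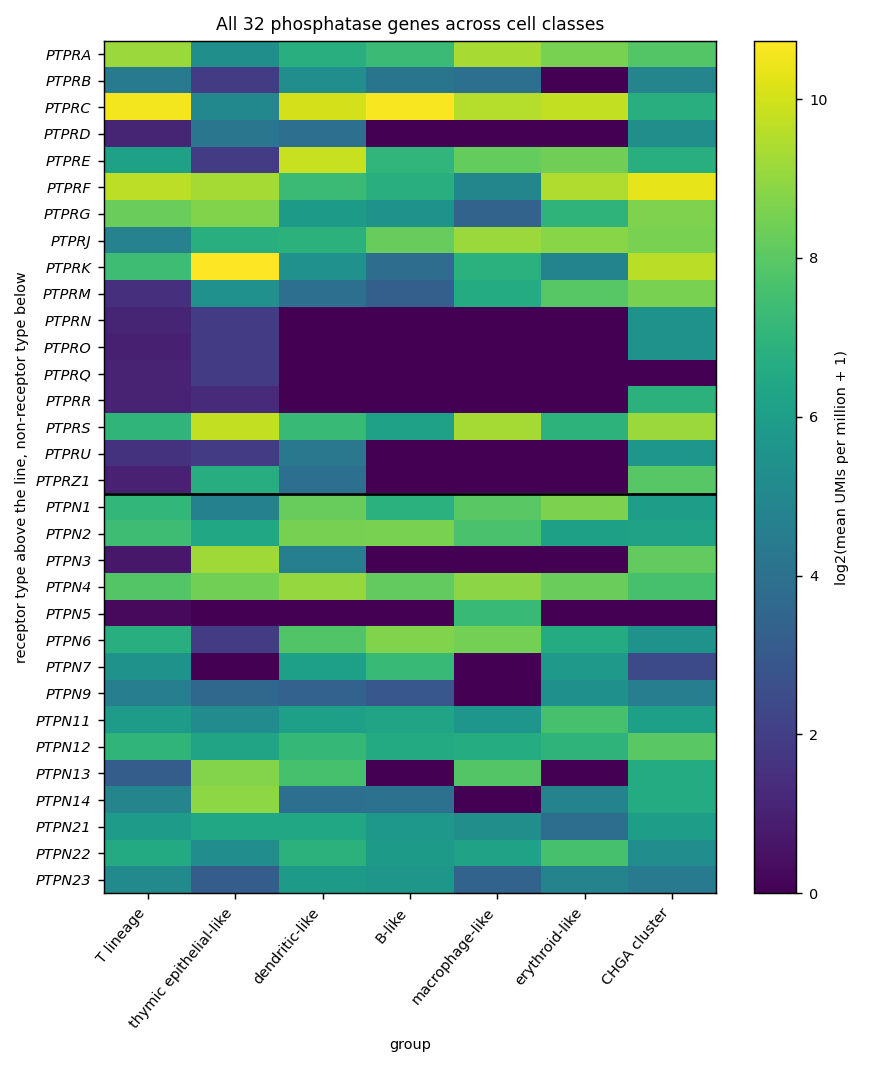
Log2(mean CPM + 1) of all 32 phosphatase genes in the 6 tested classes and the untested CHGA cluster, with receptor-type genes above the black line and 0 as the darkest colour. PTPRK is brightest in thymic epithelial-like nuclei, PTPRC is bright in the blood-cell classes, and PTPN5 stands out in macrophage-like nuclei, where it had 14 UMIs.

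Several members that were rare in the T lineage also had UMIs in a small cluster of other nuclei. The CHGA cluster, led by CHGA, CELF4, APOA1 and KCNB2, held 16 of the 26 UMIs of PTPRR, 10 of the 18 of PTPRO, 7 of the 18 of PTPRN and 70 of the 134 of PTPRM, in 41 nuclei. The T lineage, with 9562 nuclei, held 9 UMIs of PTPRR, 7 of PTPRO, 9 of PTPRN and 14 of PTPRM. The PTPRO UMIs of the CHGA cluster were all in replicate 2. The thymic epithelial list summed to 3698 and 2544 CPM in the CHGA cluster, with 2 of its 15 genes at 0 UMIs, beside 5759 and 4437 in thymic epithelial-like nuclei. PTPRN belongs to the membrane of secretory granules, and PTPRR acts on MAP kinases and is known from neurons. PTPRZ1, a relative of PTPRG found in the nervous system, had 33 of its 99 UMIs in the CHGA cluster and 58 in thymic epithelial-like nuclei. With 19 nuclei in replicate 1 the CHGA cluster was too small for a test.

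PTPN5, a phosphatase of MAP kinases known from the brain, had 14 of its 16 UMIs in macrophage-like nuclei, at 84.1 and 213 CPM. Its annotated span, chr5:12285850-12374904, overlaps that of PTPRJ, chr5:12374341-12493479, and PTPRJ was also high in these nuclei. Whether the counting used strand is not given in the sources used here, so reads within the short stretch that both spans share cannot be told apart. PTPRJ had 155 UMIs in the GNLY cluster and 39 in B-like nuclei, where PTPN5 had 0. The part of PTPRJ reads in the PTPN5 count of macrophage-like nuclei was not tested. PTPN1 lies within the span of FAM65C and PTPN23 within that of GIMAP7L5, and the end of the PTPRS span overlaps LOC107055377. PTPRB and PTPRR are neighbours on chromosome 1.

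The genes around these phosphatases were examined as 4 lists. Of 29 non-receptor tyrosine kinases 22 were tested over the T-lineage groups and 16 differed (edgeR F test, where 42.3% of all genes did). FYN, a Src-family kinase found in T cells, stood at 299 and 261 CPM in the CLGN cluster and at 2284 and 2123 in CD4 SP-like nuclei (adjusted p over all groups 1.53e-10). BLK was highest in gamma delta-like nuclei at 424 and 400, and LYN in the CLGN cluster at 598 and 512. In early DN-like nuclei, the group lowest in PTPRC, 1 kinase was higher (13.2% of all genes) and 9 were lower (7.94%), with a median log2 fold change of -0.82 over the 22, beside 0.02 over all genes tested.

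Among 49 other listed phosphatases, most but not all of them cysteine-based, 30 were tested and 16 differed (53.3%, where 42.3% of all genes tested did). PTP4A3, a small membrane-bound phosphatase, stood at 3404 and 3856 CPM in DP-like nuclei and at 150 and 212 in the GNLY cluster. DUSP16, which acts on MAP kinases, was highest in CD4 SP-like nuclei at 546 and 443, and MTM1, which acts on lipids, in DP-like nuclei at 518 and 506. Of 31 adaptors and receptors that recruit phosphatases 17 were tested and 11 differed (64.7%, beside the same 42.3%). SKAP1, an adaptor that CD45 acts on, was highest in DP-like nuclei at 2494 and 2606, the inhibitory receptor CD5 in CD4 SP-like nuclei at 604 and 895, and PSTPIP1, the adaptor that binds PTPN12, in the GNLY cluster at 826 and 831. Of the 7 STAT factors 6 were tested and 3 differed (beside the same 42.3% of all genes), STAT4 and STAT3 among them. STAT4 stood at 582 and 587 in DP-like nuclei and 620 and 567 in the GNLY cluster, against 181 and 154 in early DN-like nuclei. STAT3 was highest in the NR4A3 cluster at 149 and 165.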

How the data were processed

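Each library was deposited by the authors as a matrix of UMI counts in whole numbers. Per the submitters' processing notes, Cell Ranger 7.0.1 and GRCg7b were used; per the names of the deposited matrices, CellBender, which subtracts free RNA, was applied, with version and settings not given in the sources used here. Kit version and sequencer are given in conflicting ways in the labels' protocols and were not used. Replicate 1 held 6564 barcodes with 4826743 UMIs and replicate 2 6050 with 6570941. Barcodes with under 200 genes (1393 and 476) or over 5% mitochondrial UMIs (0 and 1) were left out, as were the 6% of nuclei with the highest simulated-doublet score (310 and 334). Clustering (scanpy 1.11.5, leidenalg 0.10.2) used 2000 variable genes without the members and listed genes, 30 components, 15 neighbours and resolution 1. A mixed cluster was split into the dendritic-like nuclei and the CHGA cluster, and the rule for stage names was set, after the clusters' genes were seen; clusters of the same name were merged. Names needed 3 markers with 10 UMIs.

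Groups with 20 or more nuclei in both libraries were summed and fitted in R 4.3.3 with edgeR 4.0.16 (TMM, filterByExpr, quasi-likelihood F tests, two-sided, library as block; 8 residual degrees of freedom for T-lineage groups and 5 for classes), after the script was tested on simulated data. Alternatives included DESeq2 1.42.0 and limma 3.58.1. SEs come from the F statistic. Fold changes are mostly not given where a group had no UMI, since they depend on the prior count. Exceptions are PTPRK in cycling thymocytes and those that reversed with doublets kept. Limits for 0 UMIs set the group to 3 counts over both libraries. Only genes outside the clustering features were tested. All 32 members were matched by symbol to RefSeq on GRCg7b for their spans. Members and lists were chosen with earlier results of these data known. Full values were given for PTPRC, the 12 members of lowest F test p, the 3 lowest per class and the 3 lowest per list, except 1 listed gene that is not reported here.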

Additional observations from a re-analysis of the deposited data

How the results depend on the processing

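The number of phosphatase genes that differed over T-lineage groups, 14, ranged from 13 to 17 under the alternatives, the number that passed in at least 1 class contrast, 14, from 12 to 17, and that of listed genes, 46, from 42 to 52. Without the replicate block these were 13, 14 and 42. No paired analysis was possible because both libraries belong to 1 group, and the block is the library. The ratio of receptor to non-receptor type in the T lineage, 3.21, was 2.94 with at least 400 genes per nucleus and 3.13 and 3.30 in single libraries. Leaving out a library leaves no residual degrees of freedom, so counts of calls have no value then. All 60 T-lineage and 33 class contrasts that were called kept their sign in each library. They had been called from these same libraries, so this is no independent check. With called doublets kept, 2 log2 fold changes reversed, PTPN13 in DP-like nuclei to 0.032 and PTPRM in erythroid-like nuclei to -6.45, both in contrasts with groups at or near 0 UMIs. Of the 60 T-lineage calls 1 was lost by DESeq2 and 9 by limma-trend (prior count 2, chosen after the data were seen), and of the 33 class calls 4 and 9. Some groups had no counterpart under other clusterings. No call in CD4 SP-like nuclei or the NR4A3 cluster could be compared with coarser clustering or with separate UMIs for clustering and testing. With separate UMIs, 43 of the 60 T-lineage calls could be compared and 6 of these were lost. Of the 33 class calls 30 could be compared and 3 were lost. The low-depth groups limit what can be called: erythroid-like nuclei held 54958 UMIs, so 0 UMIs there allows up to 54.6 CPM.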
